A study of Cervus nippon with 12 samples.

Results

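The microRNA bta-miR-101 was followed through chondrogenic induction of sika deer antler cells, as 1 of 545 listed miRNAs. It was chosen from its own measured values in the same 12 libraries, on reads, reads per 1000000 reads (RPM) and composition-normalized values, so its levels and differences are given as a description with no test. Small RNA was sequenced from reserve mesenchyme cells (RMCs), the stem-like cells of the antler growth zone, and from antler chondrocytes, with 3 libraries in each of 4 groups. CP_0 stands for RMCs before induction, CP_7 and CP_14 for RMCs pelleted and kept in chondrogenic medium for 7 and 14 days with a change every 2 days, and CC for the chondrocytes. Every library is labelled WT and antler. The study's methods describe male deer of 3 years and 3 biological replicates of each tissue, but which animal or culture gave which library is not stated. The p-values below weigh group differences against the spread between these libraries, and whether they extend to other animals cannot be told.

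miR-101 is a vertebrate miRNA that lowers the output of messenger RNAs carrying sites complementary to its 5′ end. Its described targets include EZH2, the histone methyltransferase of the Polycomb repressive complex, and PTGS2, the inducible cyclooxygenase that makes prostaglandins. In cartilage it is known from work on rat chondrocytes, where SOX9, the transcription factor that drives chondrocyte genes, was described as a target.

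The 3 libraries of CP_0 held 2973442, 4097304 and 3636580 reads on listed miRNAs, and those of CP_7 held 769655, 1032029 and 539455. The libraries of CP_14 held 2791559, 3024668 and 3864900 reads, and those of CC held 10256572, 9714090 and 9970138. The day 7 libraries were therefore the shallowest, and depth and day 7 cannot be told apart in this design. The share of reads taken by miR-21-5p, the most abundant miRNA, was 59.8%, 61.7% and 59.5% in CP_0 and 24.3%, 23.9% and 21.4% in CP_7. It was 45.0%, 45.7% and 53.9% in CP_14 and 76.9%, 75.7% and 72.9% in CC. Since RPM divides by a total that miR-21-5p fills to such different degrees, miR-101 is given on several scales. The listed names held 1 entry for miR-101, with no separate arm, and no other name matched its reads within 1% in every library.

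miR-101 had 4986, 6306 and 5392 reads in CP_0, and 550, 788 and 482 reads in CP_7. It had 5771, 6189 and 7017 reads in CP_14, and 12790, 12615 and 14971 reads in CC. Read numbers were lowest at day 7 and highest in chondrocytes, CP_0 and CP_14 overlapped, and every library held enough reads to keep the counting error of miR-101 below 5 percent. Reads carry no molecular identifiers here, so intervals and limits cover counting error only. In bulk RNA, fewer cells of a type and less RNA per cell cannot be told apart.

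On RPM, miR-101 stood at 1677, 1539 and 1483 in CP_0, a mean of 1566 ± 99.9 (SD, n = 3). In CP_7 it stood at 715, 764 and 893 RPM, a mean of 790.5 ± 92.5 (SD, n = 3). In CP_14 it stood at 2067, 2046 and 1816 RPM, a mean of 1976 ± 139.6 (SD, n = 3). Day 14 had the highest values on this scale and day 7 the lowest, with no overlap between any of the induction days. In CC it stood at 1247, 1299 and 1502 RPM, a mean of 1349 ± 135 (SD, n = 3). The chondrocyte libraries lay below those of CP_14 and overlapped those of CP_0, so that on RPM the order was CP_7, then CC and CP_0 together, then CP_14. The 95% Wilson interval of the shallowest library, CP_7 replicate 3, ran from 817 to 977 RPM, and that of the lowest CP_0 library from 1444 to 1523 RPM. By rank on RPM, miR-101 was miRNA 27, 28 and 29 of its libraries in CP_0, 59, 54 and 54 in CP_7, 27, 26 and 27 in CP_14, and 27, 26 and 26 in CC. The place of miR-101 in the abundance order thus changed at day 7 and was alike in the other 3 groups.

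Composition factors (TMM, the trimmed mean of M-values), computed over the 12 libraries, scale each library on the assumption that most miRNAs keep their level. Whether that assumption holds here was not tested. On TMM-normalized RPM, miR-101 was at 1806, 1818 and 1731 in CP_0, a mean of 1785 ± 47.0 (SD, n = 3). It was at 361, 453 and 427 in CP_7, a mean of 414 ± 47.4 (SD, n = 3). The 2 groups were far apart, and the highest day 7 library was below the lowest day 0 library. In CP_14 miR-101 was at 2022, 1999 and 1942, a mean of 1988 ± 40.9 (SD, n = 3). In CC it was at 2230.0, 2169 and 2308, a mean of 2236 ± 70.1 (SD, n = 3). On this scale the order was CP_7, CP_0, CP_14 and CC with no overlap between neighbours, although the upper 3 groups were close, with a mean in CC that was 1.25 times that in CP_0. Replicates of CP_0, CP_14 and CC varied by 2.63%, 2.06% and 3.14% (coefficient of variation), against counting errors of 1.35%, 1.26% and 0.864%. In CP_7 the variation was 11.5% against a counting error of 4.13%, so the low group was also the least precise.

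On totals without miR-21-5p, miR-101 was at 4167, 4019 and 3659 RPM in CP_0 and at 945, 1004 and 1136 RPM in CP_7. It was at 3758, 3769 and 3939 RPM in CP_14 and at 5407, 5337 and 5550.0 RPM in CC. On this scale day 0 and day 14 overlapped, day 7 stood apart at the bottom and the chondrocytes stood apart at the top. The position of day 7 was therefore the same on each of the scales given so far, while the order of CP_0, CP_14 and CC was not.

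**Figure D1:**
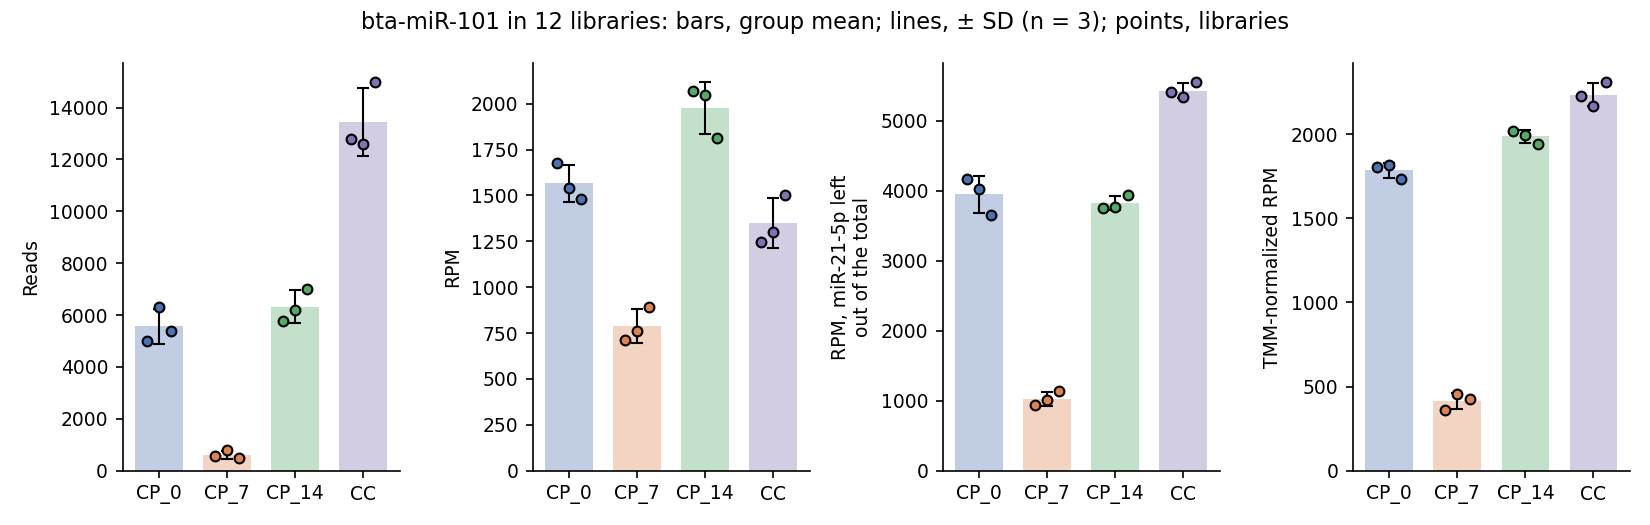
Level of bta-miR-101 (y axes: reads, RPM, RPM on totals without miR-21-5p, and TMM-normalized RPM) in the 4 groups (x axes), with bars at the group mean, lines at ± SD (n = 3) and points for libraries. Day 7 is lowest in every panel, and CC is below CP_14 on RPM (means of 1349 and 1976) but above it on TMM-normalized RPM (2236 and 1988).

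The comparison of CP_7 with CP_0 asks what changed in the first week of induction. The mean of miR-101 was 4.31-fold lower at day 7 on TMM-normalized RPM and 1.98-fold lower on RPM. The limma estimate, fitted on these 6 libraries with their own TMM factors on log2(TMM-normalized RPM + 1), was -2.06 (SE 0.089), and with library size only it was -0.99 (SE 0.11). The value was lower at day 7 on both scales, with no overlap of the groups. Of the 246 miRNAs tested, 8 had a lower log2 difference than miR-101 and 237 a higher one. The neighbours of miR-101 in that order were miR-215 (-2.38) and miR-18a (-2.31) below it, and miR-4286 (-1.94) and miR-100 (-1.86) above it. Of these, miR-100 was the only one with many reads, at a mean of 96587 in CP_0 and 12132 in CP_7, and miR-215, miR-18a and miR-4286 had means of 2.67, 6 and 5.33 reads in CP_7. The median of all tested miRNAs was 0.07 with TMM and 1.12 with library size only, and relative to that median miR-101 was at -2.14 and -2.11. In the same fit 88 miRNAs (35.8%) were called higher and 69 (28.0%) lower at day 7 (limma, Benjamini-Hochberg adjusted p below 0.05). Of the tested miRNAs, 165 (67.1%) had groups that did not overlap, miR-101 among them. Such overlap counts, here and in the next comparisons, use TMM-normalized RPM with factors over the 12 libraries and not those of the fit. Library size alone gave 152 higher and 20 lower, and unscaled reads gave 22 and 123. Nothing is read from these shares for miR-101, which was chosen from the values of all 4 comparisons.

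Between day 7 and day 14 miR-101 came back up. Its mean was 4.80-fold higher in CP_14 than in CP_7 on TMM-normalized RPM and 2.50-fold higher on RPM. The limma estimate was 2.19 (SE 0.080) with TMM and 1.32 (SE 0.11) with library size only, with no overlap of the groups on either scale. Among the 246 miRNAs tested, 10 had a higher log2 difference than miR-101 and 235 a lower one. Its neighbours were miR-215 (2.09, SE 0.35) and miR-182 (2.13, SE 0.70) below it, and miR-184 (2.20) and miR-143 (2.27) above it. In CP_7 miR-215 and miR-182 rest on few reads, with means of 2.67 and 11.7. miR-143, an abundant miRNA of mesenchymal and smooth muscle cells, had a mean of 70869 reads in CP_7 and 786474 in CP_14. Relative to the median of all tested miRNAs, which was -0.01 with TMM and -0.84 with library size only, miR-101 was at 2.20 and 2.16. In this comparison 60 miRNAs (24.4%) were called higher and 70 (28.5%) lower, and 150 (61.0%) had groups that did not overlap, again with miR-101 among them. Library size alone gave 26 higher and 138 lower, unscaled reads gave 149 and 13, and totals without miR-21-5p gave 43 and 91. This comparison shares the day 7 libraries with the first, so the low values of CP_7 enter the fall and the rise alike.

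The comparison of CP_14 with CP_0 gives the net difference over 14 days. The means of miR-101 differed by 1.11-fold on TMM-normalized RPM and by 1.26-fold on RPM, with day 14 higher and no overlap on either scale. The limma estimate was 0.17 (SE 0.055) with TMM and 0.33 (SE 0.085) with library size only. It turned to -0.080 (SE 0.091) with upper-quartile factors and to -0.045 (SE 0.084) on totals without miR-21-5p, so the direction depended on the scaling. Of 250 miRNAs tested, 102 had a higher difference than miR-101 and 147 a lower one, which places it in the middle of the distribution. Its neighbours were miR-29a (0.16) and let-7e (0.17) below it, and miR-193a-3p (0.23) and miR-194 (0.23) above it. Relative to the median of all tested miRNAs miR-101 was at 0.16 with TMM and 0.17 with library size only. Here 62 miRNAs (24.8%) were called higher and 53 (21.2%) lower, and 142 (56.8%) had groups that did not overlap. Library size alone gave 76 higher and 33 lower, upper-quartile factors gave 50 and 91, and totals without miR-21-5p gave 49 and 79.

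The comparison of CC with CP_14 sets antler chondrocytes beside the induced cells. The mean of miR-101 was 1.12-fold higher in CC on TMM-normalized RPM but 1.46-fold lower on RPM, and the groups did not overlap on either scale. The limma estimate was 0.16 (SE 0.056) with TMM, -0.55 (SE 0.089) with library size only, and 0.51 (SE 0.057) on totals without miR-21-5p. With RLE factors computed over the 12 libraries the groups overlapped, at 2001, 2090.0 and 1931 in CP_14 and 2130.0, 1981 and 2146 in CC. The direction of this difference thus followed the scaling, and chondrocytes could not be placed above or below day 14 for miR-101. Of 276 miRNAs tested, 131 had a higher difference and 144 a lower one. The neighbours were miR-3431 (0.15) and miR-16b (0.16) below it, and miR-1306 (0.16) and miR-99b (0.17) above it. Relative to the median of all tested miRNAs miR-101 was at 0.07 with TMM and at -0.01 with library size only. In this comparison 104 miRNAs (37.7%) were called higher and 102 (37.0%) lower, and 222 (80.4%) had groups that did not overlap. Library size alone gave 40 higher and 163 lower, unscaled reads gave 175 and 37, and totals without miR-21-5p gave 138 and 70.

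**Figure D2:**
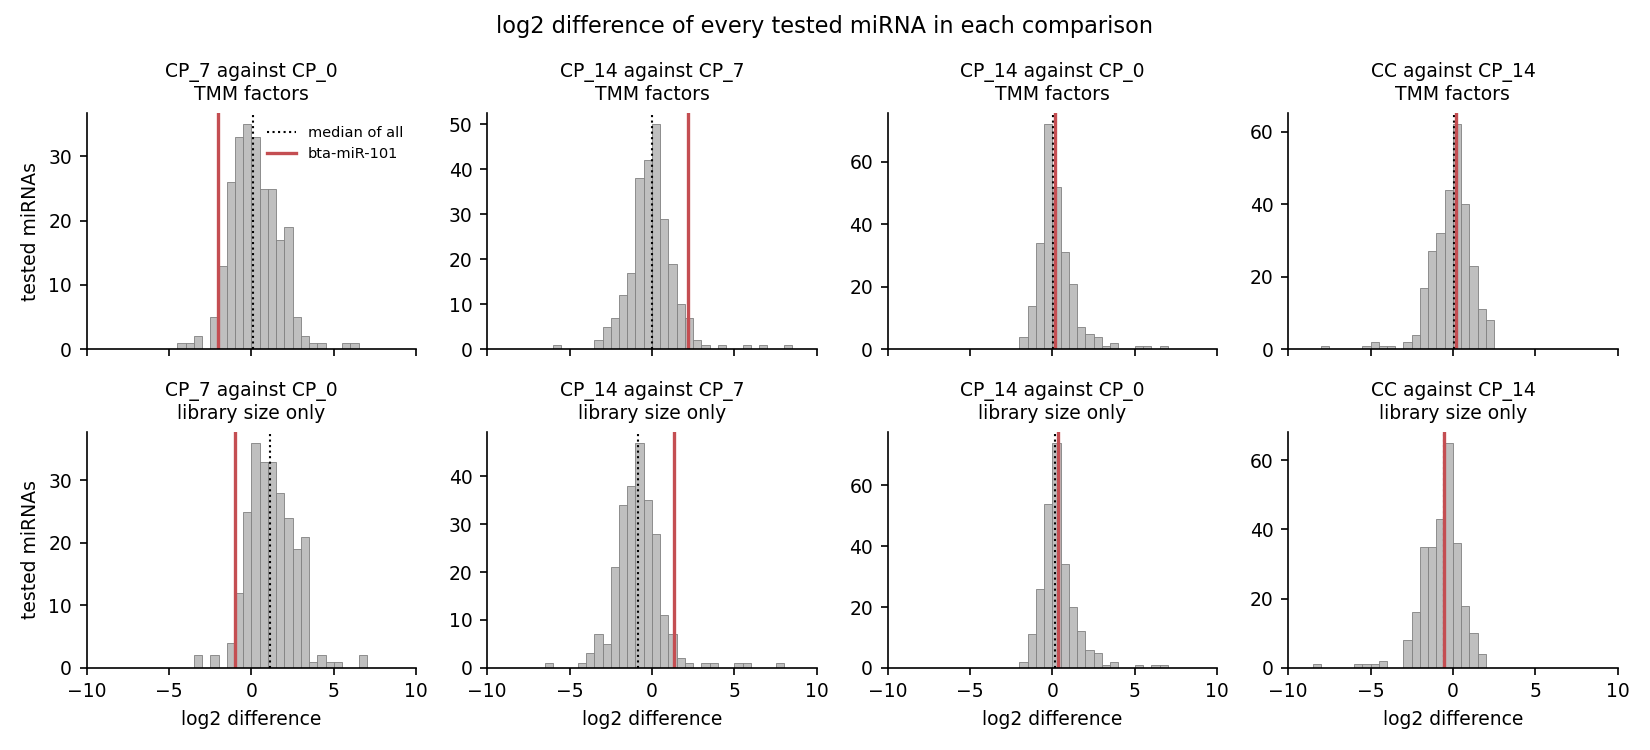
Number of tested miRNAs (y axes) by log2 difference (x axes, bins of 0.5) in the 4 comparisons, with TMM factors in the upper row and library size only in the lower row; the red line marks bta-miR-101 and the dotted line the median of all. bta-miR-101 lies in the left tail for CP_7 against CP_0 (-2.06 with TMM), in the right tail for CP_14 against CP_7 (2.19) and near the median in the other 2 comparisons, where the lines nearly coincide.

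A ratio of reads within a library needs neither depth nor a composition factor, so miR-101 was set beside 12 miRNAs often used as references, each with at least 10 reads in every library. The ratio describes change between groups, because capture in library preparation differs between miRNAs and the level of a ratio is therefore arbitrary. From CP_0 to CP_7 the log2 ratio of miR-101 to the reference was lower for 12 of 12 references and the groups did not overlap for 12, with differences from -3.84 (miR-16a) to -0.83 (miR-93) and a median of -1.96. From CP_7 to CP_14 it was higher for 12 of 12, again without overlap, with differences from 1.67 (miR-191) to 3.17 (miR-186) and a median of 2.19. These ratios use the same reads of miR-101 from which it was chosen, and so describe its change on another scale and add no independent support. Of 246 tested miRNAs, 237 had a higher log2 difference than miR-101 in the first comparison and 235 a lower one in the second. A ratio to nearly any miRNA would therefore move the same way, so the counts of 12 say little about the references. The share of all miRNAs whose ratios did not overlap was not computed. Against let-7a-5p, an abundant miRNA of differentiated cells, the mean log2 ratio was -1.74 ± 0.019 (SD, n = 3) in CP_0 and -4.71 ± 0.29 in CP_7, against -1.56 ± 0.077 in CP_14 and -1.72 ± 0.082 in CC. Against miR-103 it was 1.14 ± 0.050, -0.33 ± 0.20, 1.94 ± 0.12 and 1.78 ± 0.10 in the same order.

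Between CP_14 and CP_0 the ratio of miR-101 was lower for 5 references and higher for 7, with a median difference of 0.19. Between CC and CP_14 it was lower for 7 and higher for 5, with a median of -0.10 and a range from -2.17 (miR-93) to 1.79 (miR-16a). The references thus gave no common direction for either of these comparisons. In CP_7 against CP_0 the limma fit with TMM called 5 of the 12 references higher and 4 lower, beside 35.8% and 28.0% of all tested miRNAs, whereas library size alone gave 11 higher and 0 lower and no normalization 0 and 7.

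**Figure D3:**
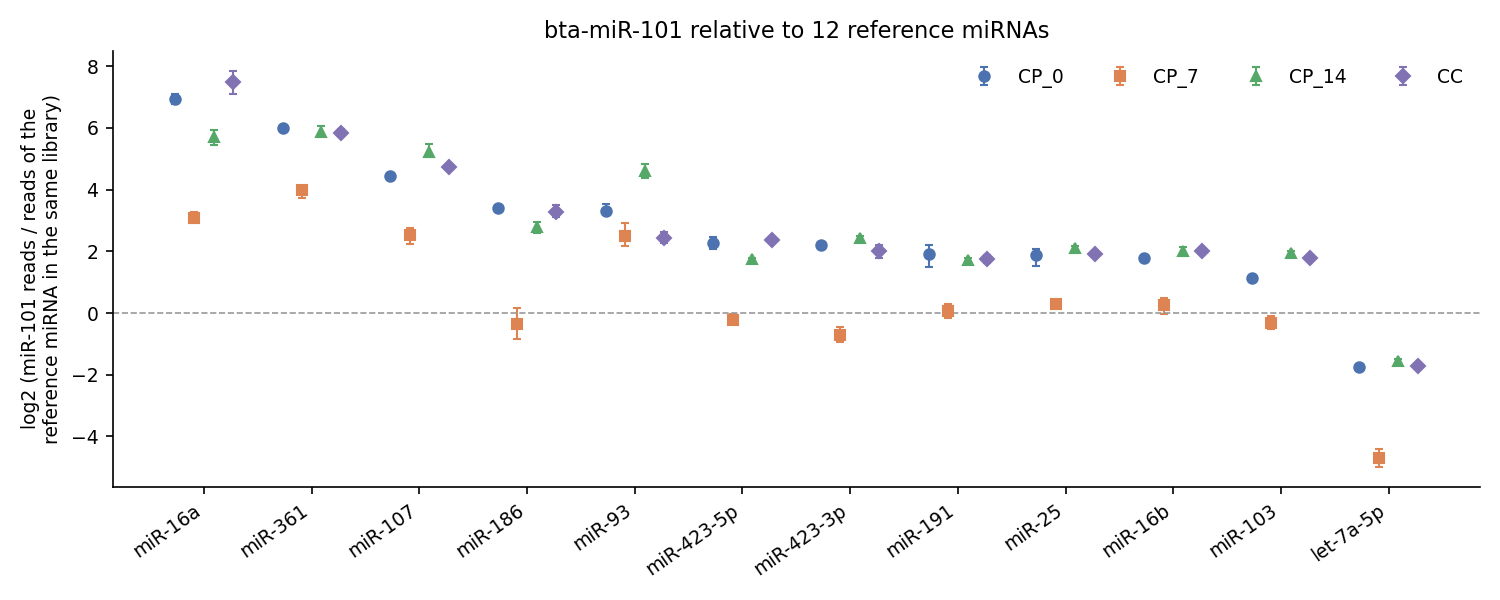
log2 ratio of bta-miR-101 reads to the reads of each of 12 reference miRNAs in the same library (y axis), by reference (x axis), with markers at the group mean and lines from the lowest to the highest of 3 libraries. The CP_7 marker is below those of CP_0 and CP_14 for every reference, while CC lies below CP_14 for 7 and above it for 5.

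Ratios of the same kind were taken to miRNAs with a known place in these cells. Against miR-140, the miRNA most tied to cartilage, the log2 ratio of miR-101 was -2.59 ± 0.029 (SD, n = 3) in CP_0 and -3.63 ± 0.081 in CP_7, against -2.30 ± 0.058 in CP_14 and -2.93 ± 0.061 in CC. Relative to miR-140, miR-101 was thus lower at day 7 than at day 0 and lower in chondrocytes than at day 14, with no overlap in either case. Against miR-21-5p the log2 ratio was -8.59 ± 0.098 in CP_0 and -8.20 ± 0.27 in CP_7, against -7.93 ± 0.25 in CP_14 and -9.13 ± 0.18 in CC. Relative to miR-21-5p, then, miR-101 was not lower but 0.39 (SE 0.16) higher at day 7 than at day 0, since the reads of miR-21-5p fell more than those of miR-101.

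Other miRNAs described elsewhere as repressing the targets of miR-101 were taken as lists. Of the list for EZH2, 6 of 7 names were in the files and 4 were tested in each comparison, namely miR-26a, miR-26b, miR-26c and miR-214, of which miR-26a and miR-26c shared nearly all reads and are counted once below. In CP_7 against CP_0, where miR-101 fell, 2 of 3 were called higher and 1 lower, beside 35.8% and 28.0% of all tested miRNAs, with a median log2 difference of 0.24 against 0.07. The call of miR-26a was absent with RLE and upper-quartile factors, and turned lower with no normalization. miR-214 was the list member that moved like miR-101, at -0.64 (SE 0.13, limma adjusted p = 0.00433) in CP_7 against CP_0 and 1.26 (SE 0.12, adjusted p = 0.000153) in CP_14 against CP_7, although with library size only it was at 0.43 and 0.40 and not called. The log2 ratio of miR-101 to miR-26a was -1.38 ± 0.013 (SD, n = 3) in CP_0 and -3.68 ± 0.17 in CP_7, against -1.15 ± 0.10 in CP_14 and -1.69 ± 0.083 in CC. The ratio was lowest at day 7 with no overlap, so miR-101 and miR-26a did not keep their proportion. In CP_14 against CP_7, where miR-101 rose, 1 of 3 was called higher and 2 lower, beside 24.4% and 28.5% of all tested miRNAs. The 2 lower calls were absent with upper-quartile factors and with the replicate number as a block (the replicate block), all 3 were called higher with no normalization, and library size alone gave 0 higher and 2 lower. In CP_14 against CP_0, 2 of 3 were called higher and 0 lower, beside 24.8% and 21.2%, but upper-quartile factors gave 2 and 1. In CC against CP_14, 1 was called higher and 1 lower, beside 37.7% and 37.0%. That balance turned with the scaling, to 0 higher and 2 lower by library size alone and to 2 and 0 with no normalization.

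Of the list for PTGS2, 5 of 5 names were in the files and 4 were tested, miR-26b, miR-199a-3p, miR-16a and miR-16b. In CP_7 against CP_0, 3 were called higher and 1, miR-16b, lower, beside 35.8% and 28.0% of all tested miRNAs, with a median of 1.14 against 0.07. Library size alone gave 4 higher and 0 lower, and no normalization 0 higher and 1 lower. miR-199a-3p was at 1.11 (SE 0.081, limma adjusted p = 2.26e-05), against -2.06 for miR-101 in the same fit, but with no normalization it was at -0.04 and not called. In CP_14 against CP_7, 1 was called higher and 2 lower, beside 24.4% and 28.5%, but the replicate block left no call, upper-quartile factors no lower call, no normalization gave 3 higher and 0 lower, and library size alone gave 0 and 4. In CP_14 against CP_0, 3 were called higher and 0 lower, beside 24.8% and 21.2% (median 0.88 against 0.01). In CC against CP_14, 0 were called higher and 3 lower, beside 37.7% and 37.0% (median -0.95 against 0.09), but no normalization left 1 higher and 1 lower, upper-quartile factors gave 1 and 3, and library size alone 0 and 4.

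Of the list for SOX9, 4 of 4 names were in the files and miR-145 and miR-30a-5p were tested in all comparisons, with miR-495 added in CC against CP_14. In CP_7 against CP_0, 1 of the 2 was called higher and 0 lower, beside 35.8% and 28.0% of all tested miRNAs, with miR-145 at 0.69 (SE 0.21, limma adjusted p = 0.0232). RLE factors left no call, upper-quartile factors and no normalization each gave 0 higher and 1 lower, and library size alone gave 2 and 0. The lower call with upper-quartile factors was that of miR-30a-5p and not of miR-145. With those factors 65 of all 246 tested miRNAs were called higher and 87 lower. The log2 ratio of miR-101 to miR-145 was 1.51 ± 0.20 (SD, n = 3) in CP_0 and -1.25 ± 0.46 in CP_7, against 1.71 ± 0.29 in CP_14 and 1.65 ± 0.24 in CC. miR-101 thus had more reads than miR-145 in every library of CP_0, CP_14 and CC and fewer in every library of CP_7. In CP_14 against CP_7, 0 of the 2 were called higher and 1 lower, beside 24.4% and 28.5% of all tested miRNAs, and the lower call was absent with upper-quartile factors and with the replicate block. No normalization turned this to 1 higher and 0 lower, and library size alone gave 0 and 2. In CP_14 against CP_0 neither was called, beside 24.8% and 21.2%, and in CC against CP_14 1 of 3 was called higher and 1 lower, beside 37.7% and 37.0%. For CC against CP_14 library size alone gave 0 higher and 2 lower, no normalization 2 and 0, and upper-quartile factors 1 and 0. miR-144, which shares most of the target-recognizing bases of miR-101, had 4 reads over the 12 libraries and was not tested. The messenger RNAs of EZH2, PTGS2 and SOX9 were not analysed here.

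The profile of miR-101 over the 12 libraries was compared with those of 194 other miRNAs that had a mean of at least 10 reads in each group. Likeness was the root mean square distance between log2(TMM-normalized RPM + 1) values after subtracting each miRNA's own mean, and the median distance from miR-101 was 1.06. The closest were miR-192 at 0.27, miR-2387 at 0.29, miR-1271 at 0.33, miR-532 at 0.40 and miR-3431 at 0.41. All 5 were low at day 7 and higher in the other groups, as miR-101 was. miR-192, known from gut and kidney epithelium, was at 538 ± 9.66 TMM-normalized RPM (SD, n = 3) in CP_0 and 174 ± 12.3 in CP_7, against 591 ± 32.3 in CP_14 and 592 ± 28.4 in CC. Its difference from CP_0 to CP_7, -1.63, was smaller in size than that of miR-101. miR-2387 had a mean of 15.3 reads in CP_7 and rests on few reads. miR-1271 departed from miR-101 in the chondrocytes, where it was at 389 ± 9.39 against 199 ± 12.7 in CP_14. The choice of the closest 5 rests on the same libraries from which miR-101 was chosen, and no shared function or control is read from it.

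The most distant profiles were those of novel_37, a predicted deer miRNA, at 2.75, miR-486 at 3.28 and miR-1246 at 3.97. novel_37 ran opposite to miR-101, at 47.6 ± 7.76 TMM-normalized RPM (SD, n = 3) in CP_0 and 758 ± 147 in CP_7, against 81.6 ± 6.08 in CP_14 and 29.2 ± 4.07 in CC. miR-1246, which is also described as a fragment of a spliceosomal RNA, was high in CP_7 and CP_14 and low in CP_0 and CC. miR-486, a miRNA of red blood cells, had 7, 20 and 8312 reads in CP_0 and 9, 133 and 23 in CP_7.

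**Figure D4:**
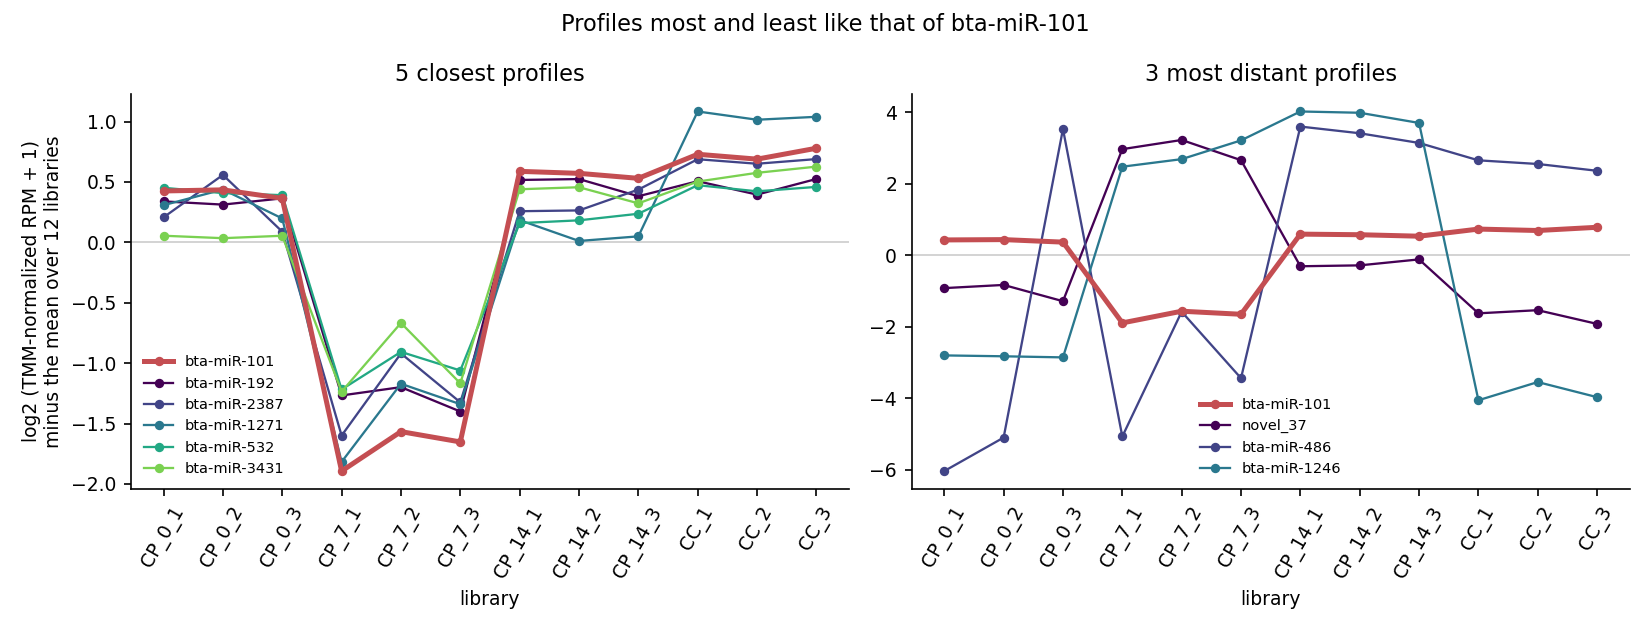
log2(TMM-normalized RPM + 1) minus each miRNA's mean over 12 libraries (y axes), by library (x axes), for bta-miR-101 (red) with the 5 closest (left) and the 3 most distant profiles (right); lines join the points of 1 miRNA and carry no order among replicates. The 5 closest are low in the 3 CP_7 libraries as bta-miR-101 is, and miR-486 is high in CP_0 replicate 3 but not in the other 2 libraries of CP_0.

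The labelled cell types were checked with marker miRNAs. The 3 listed cartilage miRNAs, miR-140 and both arms of miR-455, had reads in every library and summed to between 9043 and 11415 RPM, most of it miR-140. That sum did not separate chondrocytes from RMCs on RPM, while on TMM-normalized RPM miR-140 was at 10756 ± 417 (SD, n = 3) in CP_0 and 5100 ± 312 in CP_7, against 9818 ± 199 in CP_14 and 17000.5 ± 725 in CC. On RPM miR-140 stood at 10341, 9156 and 8831 in CP_0 and at 9420, 9056 and 10802 in CP_7. In CC it stood at 9930, 9769 and 11013 RPM, and these groups overlapped. With TMM miR-140 was lowest at day 7 and highest in CC, as miR-101 was, while on RPM only miR-101 was lowest at day 7. The other cartilage miRNAs did not follow miR-101 at day 7, since against CP_0 miR-455-3p was at 1.43 (SE 0.19, limma adjusted p = 0.000434) and miR-455-5p at 0.25 (SE 0.12, limma adjusted p = 0.102). In CP_7 against CP_0 the limma fit with TMM called 1 of the 3 higher and 1 lower, beside 35.8% and 28.0% of all tested miRNAs, while library size alone gave 2 higher and 0 lower and no normalization 0 and 2.

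Markers of other cells moved between libraries, and their part in the values of miR-101 was not tested. Values without single libraries that stood apart are given below. Leaving out 1 library does not remove a shift shared by a whole group, as for blood miRNAs in CP_14 and muscle miRNAs in CP_7. The 7 blood miRNAs summed to 17.2, 14.4 and 4223 RPM in CP_0, to 23.4, 163 and 59.3 in CP_7, to 5200.0, 4549.6 and 3508 in CP_14 and to 1468, 1468 and 1394 in CC, with miR-486 or miR-451 the most abundant in every library. miR-486 had 8312 reads in CP_0 replicate 3, 7992, 7615 and 7363 in CP_14 and 8345, 7885 and 7706 in CC, nearly the same number in libraries whose depths differed several fold, and miR-451 behaved alike, with 6039 to 6933 reads. The RPM of this list in those libraries thus mostly follows their depth, and why the reads were so alike was not tested. CP_0 replicate 3 stood apart from the other day 0 libraries, whereas its miR-101, at 1731 TMM-normalized RPM, was near their 1806 and 1818. Without that library the difference of miR-101 was -2.11 (SE 0.10) for CP_7 against CP_0 and 0.14 (SE 0.066) for CP_14 against CP_0. The 2 endothelial miRNAs, mostly miR-126-3p, summed to 188, 323 and 3083 RPM in CP_7 and to between 28.4 and 83.6 RPM in the other groups. The 4 neural miRNAs of the list found in the files summed to 3491, 342 and 352 RPM in CP_7 and to between 112 and 269 RPM elsewhere, with miR-9-5p or miR-128 the most abundant. CP_7 replicates 3 and 1 stood apart in these lists, and without them in turn the difference of miR-101 for CP_7 against CP_0 was -2.18 (SE 0.087) and -2.20 (SE 0.13). For CP_14 against CP_7 it was 2.29 (SE 0.13) and 2.17 (SE 0.097) without the same libraries.

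The 4 muscle miRNAs, mostly miR-1, summed to 4939.9, 6633 and 4536 RPM in CP_7, to between 535 and 683 in CP_0, between 1685 and 1756 in CP_14 and between 719 and 752 in CC, and so ran opposite to miR-101 at day 7. The 7 epithelial miRNAs found in the files, led by miR-200a outside CP_7, summed to 6.50, 6.78 and 16.7 RPM in CP_7 and to at most 50.9 RPM in any library. Their day 7 libraries lay below those of CP_0 and CP_14, as for miR-101, but overlapped CC. The day 7 sums rest on only 5, 7 and 9 reads. In CP_7 replicate 3 miR-200c went the other way, at 14.8 RPM against 3.57 to 9.27 RPM in CP_0. The part of epithelial cells in the values of miR-101 was not tested.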

How the data were processed

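Small RNA libraries of 12 samples were analysed. The authors deposited RPM values, headed TPM, in which the listed miRNAs of a library sum to 1000000 and no division by length was made. The submitters' processing notes name bcl2fastq 1.8.4, CASAVA and Bowtie, while trimming, counter and database release were not given in the sources used here. Dividing by the value of 1 read gave whole reads for 100% of values within a tolerance of 0.01 read. Library pairs of a group differed beyond sampling noise (chi-square at least 4.92 per degree of freedom).

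Differences were fitted for each pair of groups with limma 3.58.1 (R 4.3.3, eBayes with an intensity trend, two-sided) on log2(TMM-normalized RPM + 1), over miRNAs that passed edgeR's filterByExpr (minimum count 10, minimum total 15), with calls made at adjusted p (Benjamini-Hochberg) below 0.05. A difference on this scale understates the change of low miRNAs. On the recovered reads, edgeR 4.0.16 called 160, 134, 112 and 205 miRNAs and DESeq2 1.42.0 called 159, 133, 104 and 184, against 157, 130, 115 and 206 with limma, for CP_7 against CP_0, CP_14 against CP_7, CP_14 against CP_0 and CC against CP_14. TMM factors were taken over all listed miRNAs, for levels across the 12 libraries and for differences across the 6 libraries compared.

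miR-101 and the lists were chosen with earlier results of these data known. The miRNAs named are miR-101, the 5 closest and 3 most distant profiles, the tested members of the target, reference and cartilage lists, the most abundant marker of each other cell type, miR-21-5p, and the 2 neighbours of miR-101 on each side in each comparison. The untested miR-144 was named for the target-recognizing bases that it shares with miR-101. Alternatives were other factors, totals, pseudocounts, filters, tools and thresholds, a replicate block, and leaving out each library. Factors over filtered miRNAs were added after seeing the data. For the target and reference lists, no normalization and the replicate block were also added after seeing the data. Mature sequences and genome positions were not used here.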

Additional observations from a re-analysis of the deposited data

How the results depend on the processing

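The fall of miR-101 from CP_0 to CP_7 and its rise to CP_14 kept their direction under every alternative run. With upper-quartile factors the log2 differences for CP_7 against CP_0, CP_14 against CP_7, CP_14 against CP_0 and CC against CP_14 were -2.41, 2.33, -0.080 and 0.33, and with library size only -0.99, 1.32, 0.33 and -0.55. On unscaled reads they were -3.22, 3.40, 0.19 and 1.09, and on totals without miR-21-5p -1.94, 1.90, -0.045 and 0.51. DESeq2 gave 0.10 for CC against CP_14. Leaving out each library gave -2.32 to -2.02, 2.17 to 2.34, 0.13 to 0.19 and 0.12 to 0.18. RLE factors, other pseudocounts, no filter, edgeR, all 12 libraries in one fit and factors over filtered miRNAs (the last added after seeing the data) moved no difference by more than 0.10. The cause of these shifts was not tested.

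The level of miR-101 was 1965 in CP_0 and 1809 in CP_14 with upper-quartile factors, 2086 in CC with RLE factors, and 1566 in CP_0, 790.5 in CP_7 and 1349 in CC with library size only. When each library was left out, which was added after seeing the data, the median difference of the reference ratios ran from -2.04 to -1.92, 2.10 to 2.36, 0.092 to 0.20 and -0.15 to -0.052 in the same order of comparisons, so the last 2 were small and unsteady. Pearson correlation kept 3 of the 5 closest profiles, and leaving out a library 4 or 5.

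With at least 2-fold added to the threshold, 76 miRNAs were called in CP_14 against CP_7, 48 in CP_14 against CP_0 and 98 in CC against CP_14. Of 19 tested names of the target and reference lists (miR-26a and miR-26c, with nearly the same reads, both counted), 13 were called in CP_14 against CP_7, but 8 with upper-quartile factors and 5 with a replicate block, a check added after seeing the data, beside 130, 128 and 100 of all 246 miRNAs tested.

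The replicate block left the differences of miR-101 as they were, with SEs of 0.096, 0.10, 0.064 and 0.077, and called 151, 100, 105 and 189 miRNAs. Deviations of same-numbered libraries correlated between -0.29 and 0.13, so the number was not used as a pair, and whether it marks a shared animal or culture is not stated. Depth limits CP_7 most, where 1 read was worth up to 1.85 RPM.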
